A study of Mus musculus with 8 samples.

Results

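To find which lineage, metabolic, adhesion and transport genes differ in wild-type (WT) intestinal cells that were cultured beside cancer cells, 4 of the 8 libraries of the study were compared, 2 of mixed WT cells (wells A02 and A06) against 2 of pure WT cells (wells A01 and A05). The 8 libraries fill wells A01 to A08 in the same order of groups repeated, so wells A01-A04 and wells A05-A08 were treated as 2 quartets and the quartet was entered as a block in the fit. The labels do not say that a quartet was cultured or sorted together, so this pairing is an assumption. The genes described here come from 29 lists in 4 themes. Together the lists hold 1065 gene names, of which 972 are among the 13420 genes of the read count table and 627 had enough reads to be tested, out of 5264 tested genes. The Ly6 and Lypd genes, the annexins and the p53 targets were left aside.

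WT organoids carried the mTmG transgene (membrane-bound tdTomato, on a Rosa26-CreERT2::mT/mG and C57BL/6 background). Cancer organoids came from mice with Villin-CreERT2, in which the Villin promoter directs the recombinase to the intestinal epithelium, with Apc fl/fl and Tr53 fl/R172H among their alleles, on a C57BL/6 (F6) background. They expressed the fluorescent protein Dendra2. Organoids are cultures of epithelium in a basement membrane gel and hold no stroma or blood. Clumps of both kinds were aggregated at 2 parts WT to 1 part cancer, or each kind was cultured alone, in the same medium with EGF, Noggin and R-spondin1. On day 3 live cells were sorted by mTomato or Dendra2, and their RNA was sequenced in bulk with CEL-Seq, which reads the 3′ ends of transcripts. Neither the labels nor the methods say whether the 2 libraries of a group are separate cultures or technical repeats, so the p-values measure only the spread between these libraries.

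The small intestinal epithelium is renewed by Wnt-dependent stem cells at the crypt base, which give rise to absorptive enterocytes, which take up nutrients, and to secretory Paneth, goblet, enteroendocrine and tuft cells. Cell competition is a process in which cells of one genotype are removed by fitter neighbors, and the study set out to examine it between WT and cancer cells of the intestine. Injured intestinal epithelium is known to lose stem cell markers and to take on genes that the adult intestine does not use, among them genes of the fetal gut and the stomach.

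Pure WT libraries A01 and A05 held 1103139 and 1905693 reads and mixed WT libraries A02 and A06 held 73109 and 515035, while the deepest library, A04 of mixed cancer cells, held 4733121. Levels are given as CPM, read counts scaled to the size of each library after TMM normalization. The shallow A02 had 0 reads for 26.1% of the tested genes, against 0.646% to 8.70% in the other 7 libraries, and 3 reads in A02 make 39.3 CPM. Reads from the mitochondrial genome took 10.6% of A02 and 2.86% to 6.82% of each other library. The WT label was checked against lineage markers, and summed levels of the absorptive enterocyte list lay between 2634 and 7000 CPM in the 4 WT libraries and between 272 and 377 CPM in the 4 cancer libraries. Of 30 stromal, immune and endothelial markers, 7 are in the table and 4 of these had 0 reads in every WT library.

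With the quartet as a block, 119 of the 5264 tested genes were called, meaning an adjusted p under 0.05 (edgeR quasi-likelihood test, Benjamini-Hochberg). Of these, 87 rose (1.65% of tested genes) and 32 fell (0.608%) in mixed WT cells. Without the block 34 rose (0.646%) and 5 fell (0.0950%), and all of these 39 genes were also called with it. Many calls rested on single libraries. Without A05, 17 genes rose and 1 fell. Without A06, 24 rose and 60 fell, and the median log2 fold change of all tested genes moved from -0.15 to -0.78. Leaving out A02 gave 102 higher and 21 lower genes, and leaving out A08 gave 57 and 20. In cancer cells, 0 of 5264 genes were called between mixed and pure cultures (edgeR, smallest adjusted p = 1, and 0 also in DESeq2 with the block), with 112 genes at an unadjusted p under 0.05.

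**Figure D1:**
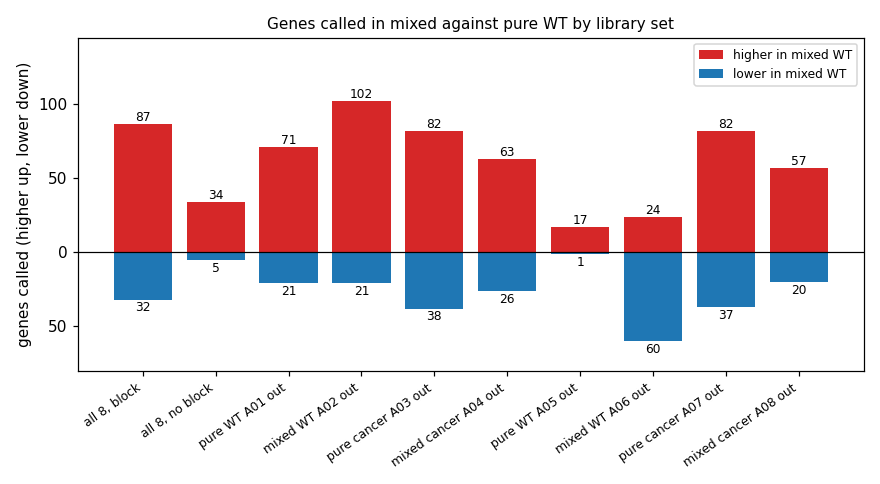
Number of genes called in mixed against pure WT cells (red bars upward, higher in mixed WT; blue bars downward, lower) with all 8 libraries, with and without the block, and with each library left out of the blocked fit. The 87 higher and 32 lower genes of the full fit became 17 and 1 without pure WT library A05, and 24 and 60 without mixed WT library A06.

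Among the 627 tested list genes, 28 rose and 15 fell with the block, and 13 rose and 5 fell without it. At an unadjusted p under 0.05 the lists held 75 higher and 45 lower genes, where 5.22% and 5.95% of all tested genes were higher and lower. Of all 5264 tested genes, 2244 (42.6%) had a positive and 3020 a negative log2 fold change, and of the 627 list genes 306 and 321. Sign counts of single lists below are to be read beside these shares. The 9 called genes of the adhesion theme all rose. Of these, 5 belong to the list of galectins and S100 proteins, while 0 of 25 tested adherens junction and desmosome genes were called. Of the called lineage genes 8 rose and 9 fell, of the metabolic genes 9 rose and 5 fell, and of the transport genes 2 rose and 1 fell. Both mixed libraries lay above both pure libraries for 25 of the 28 genes that rose (Gch1 and Klf6 being among the exceptions) and below both for all 15 that fell. Of all 119 called genes, 110 (92.4%) had both mixed libraries on 1 side of both pure ones. These counts thus go with being called and are no trait of the list genes. Over the lists as a whole, 131 of 627 genes had both mixed libraries above and 149 had both below, while 15.0% and 28.8% of all tested genes did, the latter with many genes at 0 reads in A02. Of the 43 called genes, 42 are described below. The call of 4 of these 42, Ctse, Ncoa4, S100a10 and Sat1, held without each of the 8 libraries in turn. Only Ctse and Ncoa4 also held under every other alternative tried. Without A05, 6 of the 42 calls held, and without A06, 15 held.

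Below, changes are log2 fold changes of mixed over pure WT cells in the blocked fit of all 8 libraries, with the standard error (SE). Pure levels are given in the order A01 and A05, mixed levels in the order A02 and A06, and 4 cancer levels in the order A03 and A07 (pure) and A04 and A08 (mixed). Where a call was lost when 1 library was left out, that library is named with the adjusted p of the fit without it in parentheses, and a call lost when barcode counts replaced reads is given in the same way. In DESeq2 with the block, 8 calls were lost among the list genes and the 5 per direction named outside the lists. They were Reg1 (0.83), Sprr1a (0.345), Lyz1 (0.109), Itln1 (0.0999), Gch1 (0.0877), Mcm3 (0.0731), Ung (0.065) and Mcm7 (0.064). Rnase1 and Tap1 had no adjusted p there.

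**Figure D2:**
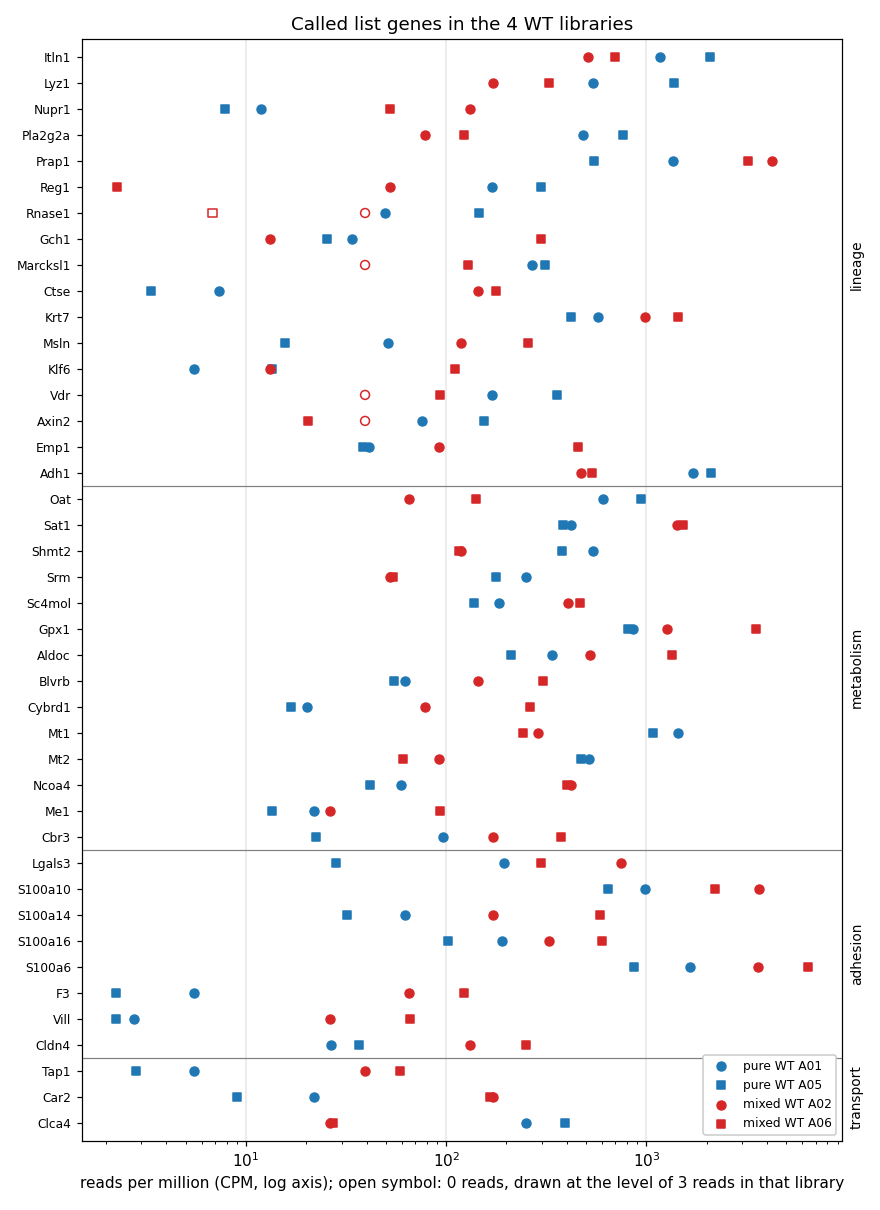
Level of each of 42 called list genes in the 4 WT libraries, in CPM on a log axis (blue, pure WT; red, mixed WT; circles, wells A01 and A02; squares, wells A05 and A06; open symbols, 0 reads, drawn at the level of 3 reads). Ctse lay at 7.32 and 3.37 against 144 and 177 CPM, and Rnase1 had 0 reads in both mixed libraries.

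**Figure D3:**
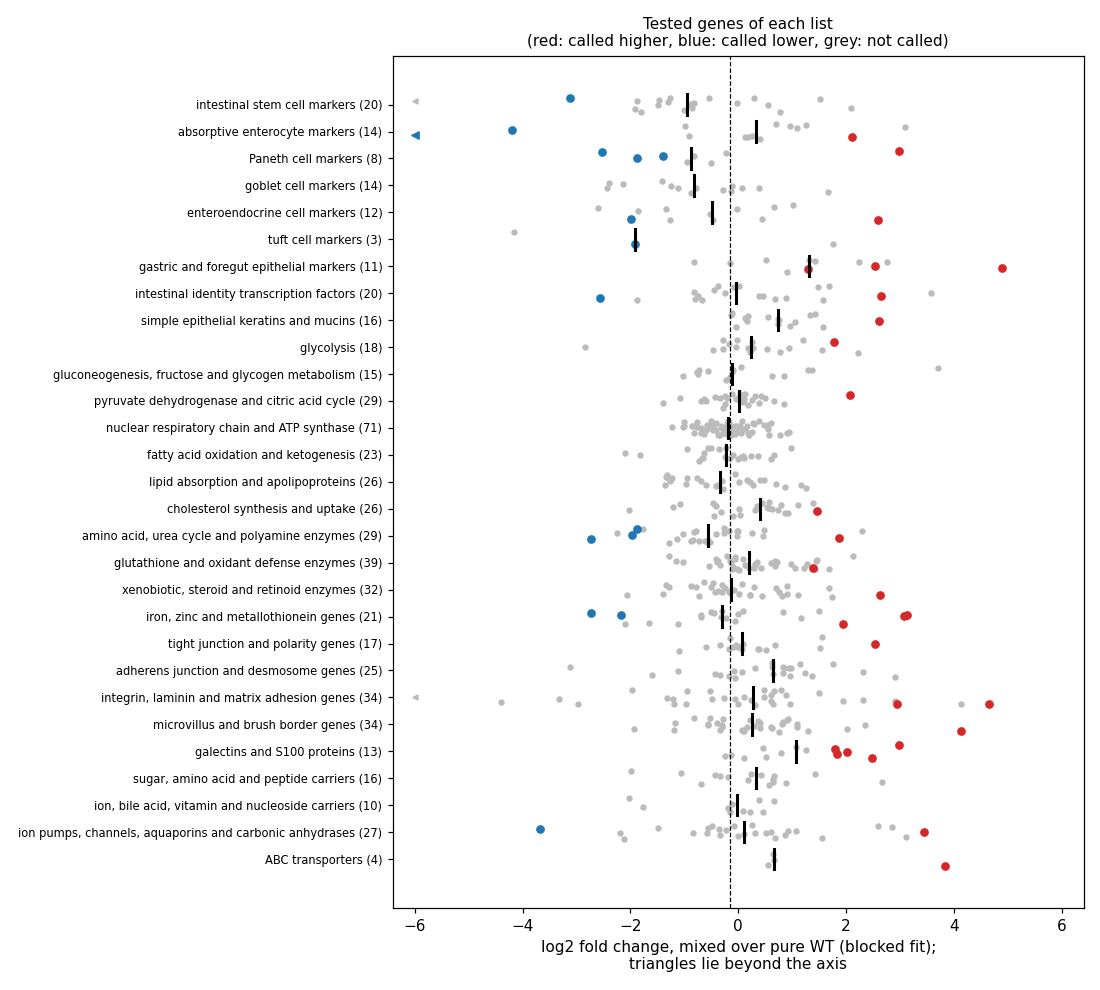
Log2 fold change of every tested gene by list, with the number of tested genes in parentheses (red, called higher; blue, called lower; grey, not called; black bar, list median; dashed line, median of all tested genes at -0.15). The gastric list has its median at 1.32 and the list of galectins and S100 proteins at 1.07. By quartet, the median log2 ratio of the gastric list was 0.78 in A01 and A02 (5 genes) and 1.84 in A05 and A06 (8 genes). For galectins and S100 proteins it was 0.07 (11 genes) and 1.77 (13 genes).

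Of 20 tested stem cell markers 1 fell in mixed WT cells and 19 did not pass the test. Axin2, a feedback inhibitor and standard target gene of Wnt signaling (chr11:108920349-108950783 on GRCm38, + strand), lay at 75.96 and 155 CPM in the pure and 0 and 20.4 CPM in the mixed libraries. It fell by 3.12 ± 0.74 (SE, adjusted p = 0.00689 with the block and 0.116 without it), and the call was lost without A05 (0.209) or A06 (0.0989). Its 0 reads in A02 compare with a level of 3 reads at 39.3 CPM, which lies below both pure levels. In cancer cells Axin2 lay at 52.5 and 68.8 CPM in the pure and 115 and 275 CPM in the mixed cancer libraries, and its change on mixing in WT minus that in cancer cells was -4.72 ± 0.95 (SE, adjusted p = 0.00316 with the block and 0.165 without it). Among the members not called, Ascl2, a Wnt-dependent regulator of stem cell fate, lay at 146 and 132 CPM in the pure and 26.2 and 43.05 CPM in the mixed libraries (log2 fold change -1.87, adjusted p = 0.155), and Smoc2, a matrix protein of stem cells, at 164 and 215 against 52.4 and 81.6 CPM (log2 fold change -1.47, adjusted p = 0.326). Prom1, a membrane protein of crypt cells, had the opposite sign at 29.3 and 48.3 against 65.5 and 154 CPM (log2 fold change 1.51, adjusted p = 0.306), as did Tgif1, a transcriptional repressor, at 95.2 and 127 against 157 and 231 CPM (log2 fold change 0.78, adjusted p = 0.593). Over the list, 15 of 20 log2 fold changes were negative with a median of -0.95 (-0.88 with genes at 0 reads in a group set at their bound), beside -0.15 over all tested genes. The sign was not the same in both quartets. Among members with more than 3 reads in both WT libraries of a quartet, the median log2 ratio was 0.72 in A01 and A02 (5 genes). It was -0.64 in A05 and A06 (16 genes). Members with few reads in the shallow A02 drop out of the first of these medians. In bulk RNA, fewer cells of a type and less RNA per cell cannot be told apart.

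Paneth cells secrete antimicrobial proteins at the crypt base. Of 8 tested Paneth markers 3 fell and 1 rose. Pla2g2a, a secreted antimicrobial phospholipase, lay at 482 and 766 CPM in the pure and 78.6 and 122 CPM in the mixed libraries. It fell by 2.53 ± 0.51 (SE, adjusted p = 0.000578 with the block and 0.0494 without it), with the call lost without A05 (0.862). Lyz1, the lysozyme of Paneth cells, lay at 538 and 1375 CPM in the pure and 170.4 and 326 CPM in the mixed libraries and fell by 1.88 ± 0.45 (SE, adjusted p = 0.00729 with the block and 0.129 without it), with the call lost without A05 (0.993), A06 (0.0795) or with barcode counts (0.637), the log2 fold change being -0.52 in the latter. Lyz1 shares 17.7% of the 50-base windows of its last 500 bases with Lyz2. Reads that fit several places equally well were discarded before counting. Itln1, a lectin that binds microbial sugars, lay at 1168 and 2073 CPM in the pure and 511 and 698 CPM in the mixed libraries. It fell by 1.39 ± 0.40 (SE, adjusted p = 0.0405 with the block and 0.234 without it), with the call lost without A02 (0.17), A05 (0.947), A06 (0.17), A08 (0.0542) or with barcode counts (0.73). When barcode counts replaced reads, the Itln1 log2 fold change was 0.45. Nupr1, which is listed as a Paneth marker and is a stress-induced nuclear protein, rose instead. It lay at 11.9 and 7.87 CPM in the pure and 131 and 52.1 CPM in the mixed libraries, a change of 2.98 ± 0.71 (SE, adjusted p = 0.00628 with the block and 0.0727 without it), with the call lost without A02 (0.214) or A05 (0.423). In cancer cells the 3 genes that fell were scarce, with pooled levels in pure and mixed cultures of 17.2 and 9.62 CPM for Pla2g2a, 7.62 and 2.64 CPM for Lyz1 and 13.3 and 14.5 CPM for Itln1, while Nupr1 lay at 68.2, 248, 106 and 244 CPM in A03, A07, A04 and A08. Summed over the whole list, Paneth markers made 3093 and 5587 CPM in the pure and 1534 and 2075 CPM in the mixed libraries.

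Of 14 enterocyte markers 1 rose and 2 fell. Prap1, a secreted protein of the intestinal lining, was the member with the highest level. It lay at 1364 and 549 CPM in the pure and 4260.2 and 3231 CPM in the mixed libraries and rose by 2.10 ± 0.38 (SE, adjusted p = 0.000104 with the block and 0.0399 without it), with the call lost without A06 (0.0942) or with barcode counts (0.408). Reg1, a secreted lectin made in crypts and lower villi, lay at 170.2 and 296 CPM in the pure and 52.4 and 2.27 CPM in the mixed libraries, from 4 reads in A02 and 1 read in A06. It fell by 4.19 ± 0.88 (SE, adjusted p = 0.0011 with the block and 0.0606 without it), with the call lost without A05 (0.993) or A06 (0.349). Rnase1, a secreted ribonuclease, lay at 49.4 and 146 CPM in the pure and 0 and 0 CPM in the mixed libraries, which over the pooled libraries is at least 18.8-fold lower (adjusted p = 0.00132 with the block and 0.0294 without it), with the call lost without A05 (0.993) or A06 (0.299). In DESeq2 with the block Reg1 was not called (adjusted p = 0.83). Prap1 lay at 10.5, 2.99, 6.26 and 5.19 CPM in cancer cells, and Reg1 and Rnase1 had 0 reads in all 4 of them. The remaining 11 tested members were not called. Among them, the villus tip keratin Krt20 lay at 24.7 and 6.74 against 91.8 and 99.7 CPM (log2 fold change 3.10, adjusted p = 0.0532) and the tetraspanin-like Tm4sf20 at 505 and 495 against 747 and 879 CPM (log2 fold change 0.69, adjusted p = 0.571). Of the 14 members 10 had a positive sign, the list median was 0.32, and the summed list level was 3729 and 2634 CPM in the pure and 6999.8 and 6681 CPM in the mixed libraries. Prap1 alone made 1364 and 549 CPM of the pure sums and 4260.2 and 3231 CPM of the mixed sums. The higher sum thus rests largely on this 1 gene and is no measure of the list as a group.

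Among 14 goblet cell markers 0 were called by edgeR with the block, although 1 was higher and 3 were lower at an unadjusted p under 0.05. The trefoil peptide Tff3, the most abundant member, lay at 1883 and 1798 CPM in the pure and 1403 and 2729.98 CPM in the mixed libraries (log2 fold change 0.07, adjusted p = 0.981), and the peptidase inhibitor Spink4 at 621 and 645 against 589.9 and 469 CPM (log2 fold change -0.28, adjusted p = 0.882). The mucus lectin Zg16 lay at 178 and 67.4 against 564 and 213 CPM (log2 fold change 1.66, adjusted p = 0.0653), and was the 1 member called by DESeq2 with the block (adjusted p = 0.0429). The secretory regulator Creb3l1, at 83.3 and 86.00 against 13.1 and 22.7 CPM (log2 fold change -2.43, adjusted p = 0.244), and the chemokine Ccl9, at 79.6 and 89.9 against 52.4 and 4.53 CPM (log2 fold change -2.40, adjusted p = 0.305), had negative values. The list median was -0.83 while its summed level was 4053 and 4180.1 CPM in the pure and 3329.5 and 4585 CPM in the mixed libraries, so the sum, which a few abundant genes make up, overlapped between the groups.

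Of 12 enteroendocrine markers 1 rose and 1 fell, and neither is a hormone. Gch1, the first enzyme of tetrahydrobiopterin synthesis, lay at 33.9 and 25.3 CPM in the pure and 13.1 and 299 CPM in the mixed libraries. The mixed libraries thus lay on either side of the pure ones, with 1 read in A02 and 132 in A06. The fitted change was 2.59 ± 0.65 (SE, adjusted p = 0.0115 with the block and 0.125 without it), the call was lost without A05 (0.6), A06 (0.615) or A08 (0.0592), and without A06 the log2 fold change turned to -1.54. Marcksl1, an actin-binding MARCKS-like protein, lay at 269 and 313 CPM in the pure and 0 and 129 CPM in the mixed libraries and fell by 2.00 ± 0.55 (SE, adjusted p = 0.0278 with the block and 0.298 without it), with the call lost without A01 (0.227), A02 (0.27), A05 (0.107) or with barcode counts (0.054). In cancer cells Gch1 lay at 94.5, 50.9, 99.99 and 67.4 CPM and Marcksl1 at 99.7, 114, 109 and 192 CPM. The hormone gene Cck lay at 125 and 310.3 against 288 and 360.2 CPM (log2 fold change 0.66, adjusted p = 0.702), Reg4 at 299 and 338 against 236 and 215 CPM (log2 fold change -0.52, adjusted p = 0.785), and Neurog3, the transcription factor that commits cells to this lineage, at 58.6 and 84.3 against 0 and 18.1 CPM (log2 fold change -2.60, adjusted p = 0.257). The tuft cell list had 3 tested members. Adh1, an alcohol and retinol dehydrogenase, lay at 1701 and 2108 CPM in the pure and 472 and 537 CPM in the mixed libraries. It fell by 1.91 ± 0.41 (SE, adjusted p = 0.00118 with the block and 0.0524 without it), with the call lost without A05 (0.194) or with barcode counts (0.607), where the log2 fold change was -0.56, and lay at 0, 5.99, 4.11 and 0 CPM in cancer cells. Avil, an actin-binding protein and a defining tuft cell marker, lay at 2.75 and 6.18 against 39.3 and 9.06 CPM from 3 and 4 reads in the mixed libraries (log2 fold change 1.76, adjusted p = 0.568).

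The list of the gastric and foregut epithelium holds 28 names, of which 21 are in the table and 11 were tested. Of the 21, 5 had 0 reads in every WT library. Of the 11 tested genes 3 rose in mixed WT cells and none fell. In the list 9 members had a positive sign, and 7 were higher and none was lower at an unadjusted p under 0.05. The list median was 1.32, beside -0.15 over all tested genes. Ctse, the aspartic protease cathepsin E of gastric surface cells (chr1:131638306-131675505, + strand), lay at 7.32 and 3.37 CPM in the pure and 144 and 177 CPM in the mixed libraries. It rose by 4.90 ± 0.77 (SE, adjusted p = 6.39e-06 with the block and 0.00359 without it), the largest called change of a list gene with more than 3 reads in each group, and the call held without each library. Its change in WT minus that in cancer cells was 4.34 ± 1.02 (SE, adjusted p = 0.0204 with the block and 0.165 without it). Msln, the cell surface protein mesothelin, lay at 51.3 and 15.7 CPM in the pure and 118 and 256 CPM in the mixed libraries and rose by 2.53 ± 0.53 (SE, adjusted p = 0.00106 with the block and 0.0399 without it), with the call lost without A05 (0.612) or A06 (0.206). Krt7, a keratin of ducts and foregut, lay at 571 and 419.9 CPM in the pure and 983 and 1441 CPM in the mixed libraries. It rose by 1.29 ± 0.37 (SE, adjusted p = 0.038 with the block and 0.148 without it), with the call lost without A02 (0.0597), A05 (0.612), A06 (0.388), A08 (0.0577) or with barcode counts (0.72). In cancer cells Ctse lay at 15.7, 108, 72.99 and 104 CPM, Msln at 194, 509, 446 and 498 CPM and Krt7 at 3191, 3592, 3431 and 3818 CPM. Dmbt1, a mucosal scavenger receptor and the most abundant member, lay at 874 and 1436 against 433 and 2003 CPM (log2 fold change -0.16, adjusted p = 0.94). Summed over the list, levels were 1742 and 2240.4 CPM in the pure and 1874 and 5063 CPM in the mixed libraries, so A02 lay between the pure libraries and only A06 lay above both.

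Of 20 tested transcription factors of intestinal identity 1 rose and 1 fell, 10 had a positive and 10 a negative log2 fold change, and the median was -0.03. Vdr, the vitamin D receptor, lay at 168 and 356 CPM in the pure and 0 and 92.9 CPM in the mixed libraries and fell by 2.57 ± 0.67 (SE, adjusted p = 0.0173 with the block and 0.293 without it), with the call lost without A01 (0.391), A02 (0.0992), A05 (0.256) or with barcode counts (0.0905). Klf6, a zinc finger factor induced by injury, lay at 5.49 and 13.5 CPM in the pure and 13.1 and 111 CPM in the mixed libraries. Its change was 2.65 ± 0.76 (SE, adjusted p = 0.038 with the block and 0.129 without it), and the call was lost without A01 (0.116), A03 (0.0793), A04 (0.0846), A05 (0.878), A06 (0.734), A07 (0.0789), A08 (0.221) or with barcode counts (0.134). Vdr lay at 0, 0, 0.587 and 5.19 CPM and Klf6 at 36.7, 98.8, 54.8 and 213 CPM in cancer cells. Elf3, an epithelial ETS factor, lay at 1383 and 1045 against 1992 and 2542 CPM (log2 fold change 0.88, adjusted p = 0.267), the enterocyte regulator Hnf4a at 321 and 332 against 367 and 641 CPM (log2 fold change 0.68, adjusted p = 0.634) and the homeobox factor Cdx1 at 276 and 268 against 13.1 and 127 CPM (log2 fold change -1.88, adjusted p = 0.0982). Among 16 keratins and mucins, 1 rose and 13 had a positive sign. Emp1, an epithelial membrane protein, lay at 41.2 and 38.2 CPM in the pure and 91.8 and 453 CPM in the mixed libraries and rose by 2.60 ± 0.52 (SE, adjusted p = 0.000474 with the block and 0.029 without it), with the call lost without A05 (0.37) or A06 (0.364), and lay at 105, 281, 223 and 415 CPM in the same cancer libraries. The keratins Krt8, at 2962 and 2592 against 3212 and 8498 CPM (log2 fold change 1.05, adjusted p = 0.156), and Krt19, at 1373 and 1003 against 1114 and 3015 CPM (log2 fold change 0.75, adjusted p = 0.467), were highest in A06. The summed keratin and mucin level was 7779 and 7458 CPM in the pure and 7485 and 18981 CPM in the mixed libraries.

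Metallothioneins, small cysteine-rich proteins that bind zinc and copper, fell in mixed WT cells, 2 of 2 tested. Both genes lie next to each other on chromosome 8, and since they moved together, the 250 bases before their RefSeq start sites (GRCm38.p6, + strand) are printed here. Capitals mark matches to the core of the metal response element, TGCACNC or TGCGCNC, on either strand. The core is the site through which the zinc sensor MTF1 is known to act.
Mt1 promoter, chr8:94178839-94179088: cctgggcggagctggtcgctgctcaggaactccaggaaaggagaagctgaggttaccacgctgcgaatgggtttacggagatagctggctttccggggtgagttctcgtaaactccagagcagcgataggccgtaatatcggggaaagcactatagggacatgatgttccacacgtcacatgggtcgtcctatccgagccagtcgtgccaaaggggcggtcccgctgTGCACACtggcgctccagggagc
Mt2 promoter, chr8:94172368-94172617: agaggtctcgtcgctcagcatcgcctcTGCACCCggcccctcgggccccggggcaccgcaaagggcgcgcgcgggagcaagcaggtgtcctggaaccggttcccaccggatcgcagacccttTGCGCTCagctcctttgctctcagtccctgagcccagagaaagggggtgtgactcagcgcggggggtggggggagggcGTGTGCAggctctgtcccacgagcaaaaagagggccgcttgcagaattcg
The Mt1 window holds 1 match and the Mt2 window 3 matches, with 2 and 1 more in the 50 bases after the start site. Of 32851 windows of the same length before RefSeq start sites, 21.4% hold at least 1 match and 1.26% at least 3, so a match is a description of the letters only. Mt1 lay at 1436 and 1079 CPM in the pure and 288 and 242 CPM in the mixed libraries and fell by 2.18 ± 0.41 (SE, adjusted p = 0.0002 with the block and 0.0507 without it), with the call lost without A05 (0.0542) or with barcode counts (0.816), the log2 fold change being -0.51 in the latter. Mt2 lay at 516 and 474 CPM in the pure and 91.8 and 61.2 CPM in the mixed libraries. It fell by 2.73 ± 0.50 (SE, adjusted p = 0.000155 with the block and 0.0284 without it), with the call lost without A05 (0.107). Both mixed libraries thus lay at a level well below both pure ones for each gene. In cancer cells Mt1 lay at 987 and 437 CPM in the pure and 841 and 244 CPM in the mixed cancer libraries, and Mt2 at 168, 53.9, 202 and 114 CPM in A03, A07, A04 and A08. The Mt2 change in WT minus that in cancer cells was -3.35 ± 0.69 (SE, adjusted p = 0.0048 with the block and 0.165 without it), and that of Mt1 was -1.74 ± 0.56 (SE, adjusted p = 0.185 with the block and 0.56 without it).

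Of the other genes of iron handling 3 rose. Ncoa4, the cargo receptor that takes ferritin to autophagosomes for release of its iron (chr14:32159865-32179855, + strand), lay at 59.5 and 41.6 CPM in the pure and 419 and 403 CPM in the mixed libraries. It rose by 3.07 ± 0.53 (SE, adjusted p = 6.74e-05 with the block and 0.0102 without it), and the call held without each library. Ncoa4 shares 31.3% of the 50-base windows of its last 500 bases with another annotated gene, Gm6768. Cybrd1, the ferric reductase of the brush border, lay at 20.1 and 16.9 CPM in the pure and 78.6 and 263 CPM in the mixed libraries and rose by 3.14 ± 0.80 (SE, adjusted p = 0.0135 with the block and 0.0294 without it), with the call lost without A05 (0.947) or A06 (0.608). Blvrb, biliverdin reductase B of heme breakdown, lay at 62.2 and 55.1 CPM in the pure and 144 and 306 CPM in the mixed libraries. It rose by 1.95 ± 0.55 (SE, adjusted p = 0.0355 with the block and 0.116 without it), with the call lost without A01 (0.11), A03 (0.0848), A04 (0.0656), A05 (0.82), A06 (0.419), A07 (0.0578) or A08 (0.126). In cancer cells Ncoa4 lay at 31.5, 38.9, 45.6 and 15.6 CPM, Cybrd1 at 0, 0, 0.196 and 0 CPM and Blvrb at 78.7, 89.8, 55.4 and 72.6 CPM. The Ncoa4 change in WT minus that in cancer cells was 3.19 ± 0.83 (SE, adjusted p = 0.0465 with the block and 0.309 without it). The ferritin chains themselves were not called, Fth1 at 2034 and 2276 against 1796 and 1869 CPM (log2 fold change -0.23, adjusted p = 0.886) and Ftl1 at 2275 and 2014 against 1848 and 2771 CPM (log2 fold change 0.10, adjusted p = 0.962). Of 21 tested members in all, 7 had a positive and 14 a negative log2 fold change, with a median of -0.30 (-0.27 with bounds).

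Of 29 tested enzymes of amino acid, urea cycle and polyamine metabolism 3 fell and 1 rose in mixed WT cells. In this list 24 members had a negative sign, beside 3020 of all 5264 tested genes, and the median was -0.57. Oat, the mitochondrial ornithine aminotransferase, lay at 609.5 and 935 CPM in the pure and 65.5 and 140.5 CPM in the mixed libraries and fell by 2.72 ± 0.49 (SE, adjusted p = 0.000102 with the block and 0.0284 without it), with the call lost without A05 (0.256) or with barcode counts (0.0511). Shmt2, the mitochondrial serine hydroxymethyltransferase that feeds one-carbon metabolism, lay at 543 and 377 CPM in the pure and 118 and 116 CPM in the mixed libraries. It fell by 1.88 ± 0.46 (SE, adjusted p = 0.00749 with the block and 0.0725 without it), with the call lost without A01 (0.0502), A02 (0.0674), A05 (0.102) or with barcode counts (0.071). Srm, the spermidine synthase, lay at 251 and 176 CPM in the pure and 52.4 and 54.4 CPM in the mixed libraries and fell by 1.97 ± 0.55 (SE, adjusted p = 0.0322 with the block and 0.129 without it), with the call lost without A01 (0.325), A02 (0.0644), A04 (0.0572), A05 (0.107), A06 (0.166) or A08 (0.0651). Sat1, the acetyltransferase that breaks down spermidine and spermine (chrX:155213132-155216449, − strand), rose instead. It lay at 422 and 384 CPM in the pure and 1416 and 1525 CPM in the mixed libraries, a change of 1.87 ± 0.38 (SE, adjusted p = 0.00059 with the block and 0.029 without it), and the call held without each library although not with barcode counts (adjusted p = 0.357). Srm, which makes spermidine, and Sat1, which breaks it down, thus changed in opposite directions. In cancer cells Oat lay at 147, 89.8, 123 and 25.9 CPM, Shmt2 at 357, 281, 321 and 192 CPM, Srm at 99.7, 183, 252 and 202 CPM and Sat1 at 1186, 1048, 696 and 783 CPM. The Sat1 change in WT minus that in cancer cells was 2.47 ± 0.53 (SE, adjusted p = 0.00591 with the block and 0.165 without it). Gpt, the alanine aminotransferase, lay at 12.8 and 7.31 against 26.2 and 58.9 CPM (log2 fold change 2.29, adjusted p = 0.388).

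Of 18 glycolysis genes 1 rose, Aldoc, the brain-type aldolase, which lay at 336 and 209.6 CPM in the pure and 524 and 1339 CPM in the mixed libraries. It rose by 1.77 ± 0.42 (SE, adjusted p = 0.00578 with the block and 0.0875 without it), with the call lost without A05 (0.489), A06 (0.454) or with barcode counts (0.134). The abundant glycolytic enzymes were not called, Ldha at 3769 and 2381 against 2753 and 2125 CPM (log2 fold change -0.29, adjusted p = 0.847) and Aldoa at 3565 and 2016 against 1612 and 3156 CPM (log2 fold change -0.28, adjusted p = 0.868), and neither was the platelet phosphofructokinase Pfkp at 88.8 and 29.2 against 65.5 and 204 CPM (log2 fold change 1.55, adjusted p = 0.162). Among 29 genes of pyruvate oxidation and the citric acid cycle, Me1, the cytosolic malic enzyme, lay at 21.96 and 13.5 CPM in the pure and 26.2 and 92.9 CPM in the mixed libraries, with 2 reads in A02. Its change was 2.07 ± 0.61 (SE, adjusted p = 0.0489 with the block and 0.186 without it), and the call was lost without A01 (0.0831), A03 (0.0934), A04 (0.212), A05 (0.856), A06 (0.91), A07 (0.0789) or A08 (0.252). Of Me1 windows, 30.3% are shared with other annotated genes. In cancer cells Aldoc lay at 535, 469.9, 547 and 622 CPM and Me1 at 189, 224, 229 and 129.7 CPM. Mdh1, the cytosolic malate dehydrogenase, lay at 315 and 347 against 105 and 129 CPM (log2 fold change -1.40, adjusted p = 0.135), while mitochondrial Mdh2 lay at 949.97 and 735 against 826 and 890.4 CPM (log2 fold change 0.06, adjusted p = 0.988) and the citrate synthase gene Cs at 526 and 443 against 564 and 444 CPM (log2 fold change 0.01, adjusted p = 1). Among 15 genes of gluconeogenesis and of fructose and glycogen metabolism 0 were called by edgeR with the block or without it or by DESeq2 with it, with 2 higher and none lower at an unadjusted p under 0.05. The sorbitol dehydrogenase gene Sord lay at 411 and 641 against 328 and 682 CPM (log2 fold change -0.10, adjusted p = 0.971) and the aldose reductase-like Akr1b8 at 65.9 and 32.6 against 91.8 and 138 CPM (log2 fold change 1.37, adjusted p = 0.291). Gbe1, the glycogen branching enzyme, had 1 read in A05 and none in A01 against 3 and 1 reads in the mixed libraries, a mixed over pure ratio of 11.1 with 95% counting limits of 1.59 and 123.

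Respiratory chain and ATP synthase genes of the nucleus formed the largest list, and 0 of 71 were called by edgeR with the block or without it or by DESeq2 with it. At an unadjusted p under 0.05, 1 was higher and 5 were lower. The median was -0.20, close to the -0.15 of all tested genes, with 22 positive and 49 negative values. Their summed level was 51917 and 47653 CPM in the pure and 46954 and 41342 CPM in the mixed libraries. The smallest unadjusted p-values belonged to the ATP synthase subunit gene Atp5g3, at 2551 and 2843 against 1101 and 1547 CPM (log2 fold change -1.01, adjusted p = 0.167), the complex I gene Ndufv3, at 394 and 327 against 131 and 159 CPM (log2 fold change -1.23, adjusted p = 0.18), and in the other direction the complex III gene Uqcrb, at 374 and 420.4 against 760.3 and 757 CPM (log2 fold change 0.93, adjusted p = 0.305). The most abundant members, Atp5h at 2493 and 2507 against 2307 and 1611 CPM (log2 fold change -0.38, adjusted p = 0.787) and Uqcrq at 2419 and 1758 against 3343 and 1159.96 CPM (log2 fold change -0.09, adjusted p = 0.969), were not called. Atp5h and Uqcrb share 31.9% and 26.5% of the 50-base windows of their last 500 bases with annotated copies.

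Lipid genes gave 1 call. Sc4mol, an older symbol for the sterol C4-methyl oxidase Msmo1, lay at 184 and 138 CPM in the pure and 406 and 464 CPM in the mixed libraries. Its change was 1.46 ± 0.43 (SE, adjusted p = 0.0499 with the block and 0.213 without it), and the call was lost without A01 (0.0917), A02 (0.0733), A03 (0.083), A04 (0.0898), A05 (0.681), A06 (0.276), A07 (0.0522), A08 (0.178) or with barcode counts (0.178). It lay at 257, 416, 307 and 213 CPM in cancer cells. Of the other 25 tested genes of cholesterol synthesis and uptake none was called. Among them were Fdft1, the squalene synthase, at 322 and 195 against 249 and 526 CPM (log2 fold change 0.62, adjusted p = 0.681), and Fdps, the farnesyl diphosphate synthase, at 610.4 and 324 against 642 and 587 CPM (log2 fold change 0.44, adjusted p = 0.773). Among 26 genes of lipid absorption 0 were called by edgeR with 1 at an unadjusted p under 0.05. That gene, Sar1b, which loads chylomicrons into transport vesicles, lay at 173 and 291 against 472 and 614 CPM (log2 fold change 1.25, adjusted p = 0.12; adjusted p = 0.0271 in DESeq2 with the block), and the desaturase gene Scd2 at 397 and 181 against 433 and 415 CPM (log2 fold change 0.69, adjusted p = 0.59). Among 23 genes of fatty acid oxidation and ketogenesis 0 were called by edgeR or DESeq2 with the block and 1 passed the unadjusted threshold, the thioesterase gene Acot1 at 119.9 and 183 against 0 and 70.2 CPM (log2 fold change -2.10, adjusted p = 0.161). The mitochondrial carrier Ucp2 lay at 744 and 982 against 419 and 666 CPM (log2 fold change -0.66, adjusted p = 0.59).

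Of 39 glutathione and oxidant defense genes 1 rose. Gpx1, the glutathione peroxidase that removes hydrogen peroxide, lay at 857 and 812 CPM in the pure and 1272 and 3527 CPM in the mixed libraries. It rose by 1.38 ± 0.38 (SE, adjusted p = 0.0276 with the block and 0.148 without it), with the call lost without A05 (0.695), A06 (0.476) or with barcode counts (0.704). The glutathione synthesis gene Gclc lay at 31.1 and 42.7 against 288 and 90.6 CPM (log2 fold change 2.13, adjusted p = 0.0538). Thioredoxin Txn1 lay at 2134 and 3010.4 against 2858 and 4059.8 CPM (log2 fold change 0.43, adjusted p = 0.741) and the transferase Gstm1 at 1118 and 1861 against 589.9 and 3317 CPM (log2 fold change -0.02, adjusted p = 0.999). The peroxiredoxins had negative values, Prdx3 at 226 and 369 against 65.5 and 213 CPM (log2 fold change -1.02, adjusted p = 0.393) and Prdx4 at 136 and 218 against 65.5 and 83.8 CPM (log2 fold change -1.16, adjusted p = 0.362). Of 32 xenobiotic, steroid and retinoid enzymes, Cbr3, a carbonyl reductase, rose. It lay at 96.1 and 22.5 CPM in the pure and 170.4 and 374 CPM in the mixed libraries, a change of 2.63 ± 0.58 (SE, adjusted p = 0.00197 with the block and 0.123 without it), with the call lost without A05 (0.659) or A06 (0.471). In cancer cells Gpx1 lay at 1128, 1508, 1032 and 1727 CPM and Cbr3 at 142, 77.8, 52.6 and 31.1 CPM, and the Cbr3 change in WT minus that in cancer cells was 3.99 ± 0.84 (SE, adjusted p = 0.005 with the block and 0.262 without it). Other enzymes of the list were not called, among them the aldo-keto reductase Akr1a1 at 872 and 819 against 669 and 641 CPM (log2 fold change -0.37, adjusted p = 0.806), the carboxylesterase Ces2e at 512 and 672 against 380.1 and 911 CPM (log2 fold change 0.07, adjusted p = 0.983), the aldehyde dehydrogenase Aldh1b1 at 486 and 302 against 144 and 154 CPM (log2 fold change -1.28, adjusted p = 0.234) and the short-chain dehydrogenase Dhrs1 at 274 and 183 against 0 and 134 CPM (log2 fold change -1.35, adjusted p = 0.253).

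Galectins and S100 proteins gave more genes that rose than any other of the 29 lists. Of 13 tested members 5 rose and none fell, 3 of them also without the block, and the list median was 1.07. The quartets differed in this. Among members with more than 3 reads in both WT libraries of a quartet, the median log2 ratio was 0.07 in A01 and A02 (11 genes). It was 1.77 in A05 and A06 (13 genes). Of the 5, 4 are S100 genes, small calcium-binding proteins, on chromosome 3. S100a14 (chr3:90526856-90528837, + strand) and S100a16 (chr3:90537254-90543151, + strand) are neighbors there, with S100a6 (chr3:90612882-90624181, + strand) nearby and S100a10 (chr3:93555080-93564643, + strand) farther away. S100a6 was the most abundant of the called members, at 1653 and 868 CPM in the pure and 3618 and 6396 CPM in the mixed libraries, and rose by 2.02 ± 0.38 (SE, adjusted p = 0.000155 with the block and 0.0199 without it), with the call lost without A05 (0.0542), A06 (0.196) or with barcode counts (0.692). S100a10, the partner of annexin A2, lay at 986 and 644 CPM in the pure and 3657 and 2189 CPM in the mixed libraries and rose by 1.83 ± 0.37 (SE, adjusted p = 0.000505 with the block and 0.0387 without it), with the call held without each library. S100a14 lay at 62.2 and 32.04 CPM in the pure and 170.4 and 587 CPM in the mixed libraries. It rose by 2.98 ± 0.48 (SE, adjusted p = 8.41e-06 with the block and 0.00933 without it), with the call lost without A06 (0.14) or with barcode counts (0.242). S100a16 lay at 189 and 102 CPM in the pure and 328 and 600.4 CPM in the mixed libraries and rose by 1.79 ± 0.43 (SE, adjusted p = 0.00694 with the block and 0.123 without it), with the call lost without A05 (0.439), A06 (0.426) or with barcode counts (0.357). Lgals3, the sugar-binding galectin 3 (chr14:47367751-47386160, + strand), lay at 194 and 28.1 CPM in the pure and 747 and 299 CPM in the mixed libraries. It rose by 2.49 ± 0.44 (SE, adjusted p = 7.00e-05 with the block and 0.143 without it), with the call lost without A05 (0.0621) or with barcode counts (0.241). These 5 genes were abundant in cancer cells. Levels in A03, A07, A04 and A08 were 577, 1155, 812 and 814 CPM for S100a14, 672, 389, 644 and 689.9 CPM for S100a16, 8702, 7587, 9132 and 8989.6 CPM for S100a6, 3684, 2209, 2137 and 2563 CPM for S100a10 and 1071, 646, 1074 and 669 CPM for Lgals3. Changes in WT minus those in cancer cells passed the test for S100a14 at 3.00 ± 0.63 (SE, adjusted p = 0.00501 with the block and 0.165 without it), S100a10 at 2.08 ± 0.51 (SE, adjusted p = 0.024 with the block and 0.309 without it) and Lgals3 at 2.47 ± 0.59 (SE, adjusted p = 0.0221 with the block and 0.57 without it). With barcode counts, which reach 256 at most, none of the 5 was called, S100a10 included (adjusted p = 0.652). Lgals2, the galectin of enterocytes, lay at 3799 and 4127 against 3762 and 7426 CPM (log2 fold change 0.46, adjusted p = 0.729).

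Since mixed WT cells were sorted from cultures with cancer cells, the levels of genes that mark cancer cells were measured in them. For 12 genes that were high in cancer and nearly without reads in pure WT libraries, the pooled mixed WT level was a median of 1.23% (highest 6.34%) of the mixed cancer level. These 12 genes held 3 reads in A02 and 13 in A06, so the percentages rest on few reads and say little about A02. The pooled levels mostly reflect the deeper libraries A06 and A04. Of the 28 list genes that rose, 18 lay in mixed WT cells at a pooled level above that of both pure and mixed cancer cells. The others were S100a6, S100a10, S100a14, S100a16, Lgals3, Msln, Krt7, Nupr1, Me1 and Vill. The same share over all called genes was not counted. Whether RNA of cancer cells was carried over was not tested.

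Of 17 tight junction and polarity genes 1 rose. Cldn4, a claudin of tight junctions (chr5:134945119-134946934, − strand), lay at 26.5 and 36.5 CPM in the pure and 131 and 251 CPM in the mixed libraries and rose by 2.54 ± 0.62 (SE, adjusted p = 0.00866 with the block and 0.0796 without it), with the call lost without A05 (0.523) or A06 (0.128). In cancer cells Cldn4 lay at 10.5, 89.8, 67.5 and 98.6 CPM. Cldn7, the most abundant claudin of the list, lay at 643 and 354 against 564 and 804 CPM (log2 fold change 0.52, adjusted p = 0.727), the tricellular junction receptor Lsr at 882 and 545 against 157 and 469 CPM (log2 fold change -1.10, adjusted p = 0.213) and the virus receptor and junction protein Cxadr at 31.1 and 39.3 against 91.8 and 111 CPM (log2 fold change 1.51, adjusted p = 0.362). Among 25 genes of adherens junctions and desmosomes 0 were called with the block or without it by edgeR, with 3 higher and none lower at an unadjusted p under 0.05. The list median was 0.65 and 17 values were positive. Cdh1, the epithelial cadherin, lay at 254 and 300.1 CPM in the pure and 170.4 and 476 CPM in the mixed libraries (log2 fold change 0.06, adjusted p = 0.99). Its partners α-catenin, Ctnna1, at 153 and 169 against 406 and 317 CPM (log2 fold change 1.14, adjusted p = 0.203), and β-catenin, Ctnnb1, at 193 and 381 against 406 and 702 CPM (log2 fold change 0.98, adjusted p = 0.305), had positive values. Pvr, a nectin-like adhesion receptor, lay at 9.15 and 5.62 against 105 and 27.2 CPM (log2 fold change 2.90, adjusted p = 0.116), and was called by DESeq2 with the block (adjusted p = 0.0376).

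Of 34 integrin, laminin and matrix adhesion genes 2 rose. Among these, F3, the tissue factor that starts blood clotting, lay at 5.49 and 2.25 CPM in the pure and 65.5 and 122 CPM in the mixed libraries and rose by 4.64 ± 1.02 (SE, adjusted p = 0.00197 with the block and 0.0135 without it), with the call lost without A05 (0.515) or A06 (0.203). In cancer cells F3 lay at 5.25, 20.95, 20.3 and 20.7 CPM. The syndecan Sdc1 lay at 259 and 198 against 236 and 716 CPM (log2 fold change 0.97, adjusted p = 0.335) and the tetraspanin Cd151 at 161 and 122 against 209.7 and 188 CPM (log2 fold change 0.48, adjusted p = 0.799). Mmp14, a membrane metalloprotease, had 0 reads in both mixed libraries against 16.5 and 5.62 CPM, which is at least 1.68-fold lower and not called (adjusted p = 0.38).

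Of 34 microvillus and brush border genes 1 rose. Vill, a villin-like actin-binding protein, lay at 2.75 and 2.25 CPM in the pure and 26.2 and 65.7 CPM in the mixed libraries, with 2 reads in A02 and 29 in A06. It rose by 4.12 ± 1.02 (SE, adjusted p = 0.00973 with the block and 0.0294 without it), with the call lost without A05 (0.815), A06 (0.27), A08 (0.0506) or with barcode counts (0.0618), and lay at 20.99, 98.8, 32.7 and 93.4 CPM in cancer cells. The actin-severing cofilin Cfl1, the most abundant member, lay at 1384 and 1659.8 CPM in the pure and 589.9 and 754 CPM in the mixed libraries and was not called (log2 fold change -1.18, adjusted p = 0.0748). Its change in WT minus that in cancer cells was -1.99 ± 0.52 (SE, adjusted p = 0.0468 with the block and 0.34 without it). The myosin gene Myo1c lay at 47.6 and 21.9 against 144 and 129 CPM (log2 fold change 2.01, adjusted p = 0.0517), Baiap2l2, a shaper of microvillus membranes, at 71.4 and 105 against 0 and 45.3 CPM (log2 fold change -1.93, adjusted p = 0.384), and the G protein subunit gene Gna11 at 1240.1 and 743 against 773 and 1452 CPM (log2 fold change 0.17, adjusted p = 0.932).

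Transport genes were mostly near the detection limit, with 57 of 147 listed genes in the table tested, and 3 were called. Clca4, a secreted protein of the calcium-activated chloride channel regulator family, given by an older symbol, lay at 249.8 and 394 CPM in the pure and 26.2 and 27.2 CPM in the mixed libraries, from 2 and 12 reads in the mixed libraries. It fell by 3.67 ± 0.68 (SE, adjusted p = 0.000155 with the block and 0.0133 without it), with the call lost without A05 (0.695). Car2, the cytosolic carbonic anhydrase that interconverts carbon dioxide and bicarbonate, lay at 21.96 and 8.99 CPM in the pure and 170.4 and 165 CPM in the mixed libraries and rose by 3.44 ± 0.79 (SE, adjusted p = 0.00392 with the block and 0.029 without it), with the call lost without A05 (0.6) or A06 (0.081). Tap1, a subunit of the transporter that loads peptides onto MHC class I, lay at 5.49 and 2.81 CPM in the pure and 39.3 and 58.9 CPM in the mixed libraries, with 3 reads in A02. Its change was 3.82 ± 1.10 (SE, adjusted p = 0.0397 with the block and 0.114 without it), and the call was lost without A01 (0.498), A04 (0.32), A05 (0.857), A06 (0.504), A08 (0.111) or with barcode counts (0.122). In cancer cells Clca4 lay at 0, 0, 0.783 and 0 CPM, Car2 at 5.25, 8.98, 11.9 and 36.3 CPM and Tap1 at 5.25, 2.99, 26.8 and 5.19 CPM. The sodium pump subunit gene Atp1b1, at 285 and 378 against 288 and 376 CPM (log2 fold change -0.00, adjusted p = 1), was not called, nor were the chloride channel-like Clic3, at 3.66 and 1.69 against 0 and 43.05 CPM (log2 fold change 3.11, adjusted p = 0.116), or the exporters Abcc1, at 14.6 and 26.4 against 39.3 and 29.5 CPM (log2 fold change 0.65, adjusted p = 0.885), and Abcc3, at 43.9 and 61.8 against 26.2 and 161 CPM (log2 fold change 0.66, adjusted p = 0.833).

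Solute carriers gave no call by edgeR with the block or without it, nor by DESeq2 with it, among 16 carriers of sugars, amino acids and peptides and 10 of ions, bile acids, vitamins and nucleosides. At an unadjusted p under 0.05, 1 of the first was higher, and 1 of each was lower. The glucose carrier Slc2a1 lay at 70.5 and 25.3 against 78.6 and 122 CPM (log2 fold change 1.42, adjusted p = 0.286). The amino acid carrier Slc7a5 lay at 60.4 and 42.2 against 13.1 and 11.3 CPM (log2 fold change -1.98, adjusted p = 0.28), its partner chain Slc3a2 at 160.2 and 152 against 131 and 229 CPM (log2 fold change 0.24, adjusted p = 0.924) and the glutamine carrier Slc1a5 at 182 and 135 against 26.2 and 154 CPM (log2 fold change -0.69, adjusted p = 0.741). The nucleoside carrier Slc29a1 lay at 152 and 173 against 78.6 and 33.98 CPM (log2 fold change -1.77, adjusted p = 0.184) and the chloride cotransporter Slc12a2 at 65.9 and 135 against 249 and 65.7 CPM (log2 fold change 0.45, adjusted p = 0.886).

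Outside the lists, 50 genes rose and 17 fell. The 5 that rose most among those with a mean of at least 50 reads in the WT libraries were Sprr1a, AA467197, Il1rn, Gsdmd and Ero1l. Sprr1a, a protein of the cornified envelope, lay at 59.5 and 4.50 CPM in the pure and 301 and 247 CPM in the mixed libraries and rose by 3.44 ± 0.66 (SE, adjusted p = 0.000245 with the block and 0.129 without it), with the call lost without A05 (0.23). Il1rn, the antagonist of the interleukin 1 receptor, lay at 46.7 and 33.7 CPM in the pure and 144 and 317 CPM in the mixed libraries, a change of 2.50 ± 0.63 (SE, adjusted p = 0.0122 with the block and 0.0508 without it), with the call lost without A05 (0.815) or A06 (0.377). Ero1l, an older symbol of the oxidase Ero1a that forms disulfides in the endoplasmic reticulum, lay at 63.1 and 39.9 CPM in the pure and 315 and 217 CPM in the mixed libraries. It rose by 2.38 ± 0.45 (SE, adjusted p = 0.0002 with the block and 0.0284 without it), and the call held without each library. AA467197 and the pore-forming gasdermin gene Gsdmd rose by 2.91 ± 0.45 (SE, adjusted p = 5.59e-06 with the block and 0.00598 without it) and 2.44 ± 0.52 (SE, adjusted p = 0.00129 with the block and 0.0389 without it). The Gsdmd call was lost without A05 (0.322) or A06 (0.529). Changes in WT minus those in cancer cells passed the test for AA467197 at 3.80 ± 0.63 (SE, adjusted p = 4.71e-05 with the block and 0.0253 without it) and for Ero1l at 2.68 ± 0.61 (SE, adjusted p = 0.0115 with the block and 0.259 without it).

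The 5 that fell most under the same rule all act in DNA replication or repair. Mcm3, Mcm5 and Mcm7 encode subunits of the replicative helicase, Lig1 the ligase that joins Okazaki fragments, and Ung the uracil glycosylase of base repair. Mcm5 lay at 137 and 171 CPM in the pure and 52.4 and 15.9 CPM in the mixed libraries and fell by 2.61 ± 0.67 (SE, adjusted p = 0.0147 with the block and 0.13 without it), with the call lost without A05 (0.888) or A06 (0.274). Lig1 lay at 96.1 and 95.6 CPM in the pure and 0 and 11.3 CPM in the mixed libraries. It fell by 3.18 ± 0.85 (SE, adjusted p = 0.0209 with the block and 0.123 without it), with the call lost without A02 (0.0949) or A05 (0.815). Both Lig1 and Ung had 0 reads in A02 and 5 reads in A06. Ung lay at 109.8 and 88.8 CPM in the pure and 0 and 11.3 CPM in the mixed libraries and fell by 3.19 ± 0.89 (SE, adjusted p = 0.0326 with the block and 0.129 without it), with the call lost without A01 (0.0812), A02 (0.142), A05 (0.817), A08 (0.0542) or with barcode counts (0.0546). Mcm3 fell by 3.13 ± 0.90 (SE, adjusted p = 0.038 with the block and 0.148 without it), with the call lost without A01 (0.0502), A02 (0.175), A04 (0.0633), A05 (0.828) or A08 (0.0629), and Mcm7 fell by 2.04 ± 0.56 (SE, adjusted p = 0.0276 with the block and 0.148 without it), with the call lost without A02 (0.177) or A05 (0.947). Their pure levels were 88.8 and 70.3 CPM for Mcm3 and 197 and 257 CPM for Mcm7, against 0 and 4 reads and 2 and 28 reads in the mixed libraries.

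The 2 quartets differed in the size of the change for the genes that rose. Each quartet's ratio was taken only where both of its WT libraries had more than 3 reads, which left 369 list genes, 22 that rose and 9 that fell. For 20 of the 22, the ratio was larger in wells A05 and A06 than in A01 and A02, with S100a10 and Nupr1 as the exceptions. These 22 were chosen by their call in the same fit, where A06 held 515035 and A02 73109 reads, so this count is no independent result. Over all list genes with a ratio, the median was -0.05 in A01 and A02 (374 genes) and 0.25 in A05 and A06 (580 genes). Over all tested genes with a ratio it was 0.11 (2157 genes) and 0.02 (4828 genes). The 2 quartets thus cover different sets of genes. Of the 9 genes that fell, 5 had the larger change in A05 and A06. Metallothionein and amino acid genes had like ratios in both quartets, with log2 ratios of -2.32 and -2.15 for Mt1, -2.49 and -2.95 for Mt2 and -3.22 and -2.74 for Oat. S100a14 had log2 ratios of 1.45 and 4.19, Cbr3 of 0.83 and 4.06 and Msln of 1.20 and 4.02. The pure libraries also differed from each other for some of these genes, with Cbr3 at 96.1 CPM in A01 and 22.5 CPM in A05, and Lgals3 at 194 and 28.1 CPM.

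**Figure D4:**
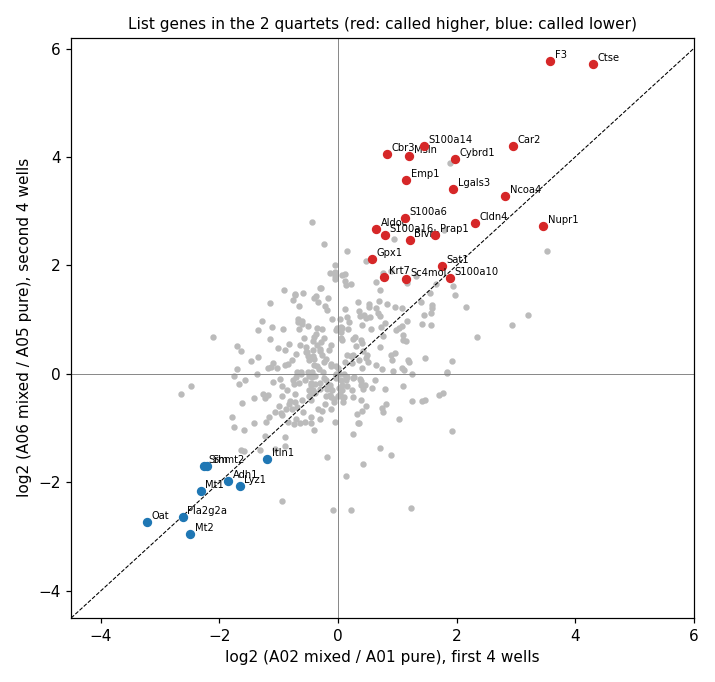
Log2 ratio of mixed to pure WT levels in wells A01 and A02 (x axis) and in wells A05 and A06 (y axis) for the 369 list genes with more than 3 reads in each of the 4 libraries (red, called higher; blue, called lower; grey, not called; dashed line, equal ratios). Of the 22 red genes, 20 lie above the line, and the blue genes lie along it, such as Mt1 at -2.32 and -2.15.

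Finally, the change on mixing was compared between WT and cancer cells with the interaction term of the same fit. Of 5264 genes, 24 (0.456%) had the more positive and 6 (0.114%) the more negative change in WT cells, and without the block 4 genes passed. Among the 627 list genes 10 passed. The change was more positive in WT cells for Ctse, Sat1, Ncoa4, Cbr3, S100a14, S100a10 and Lgals3, and more negative for Axin2, Mt2 and Cfl1. In cancer cells themselves the changes of these genes were not called, from -1.36 ± 0.59 (SE) for Cbr3 to 1.60 ± 0.59 for Axin2 on the log2 scale. For the other called list genes the difference did not pass, which does not show that the 2 cell types changed alike.

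**Figure D5:**
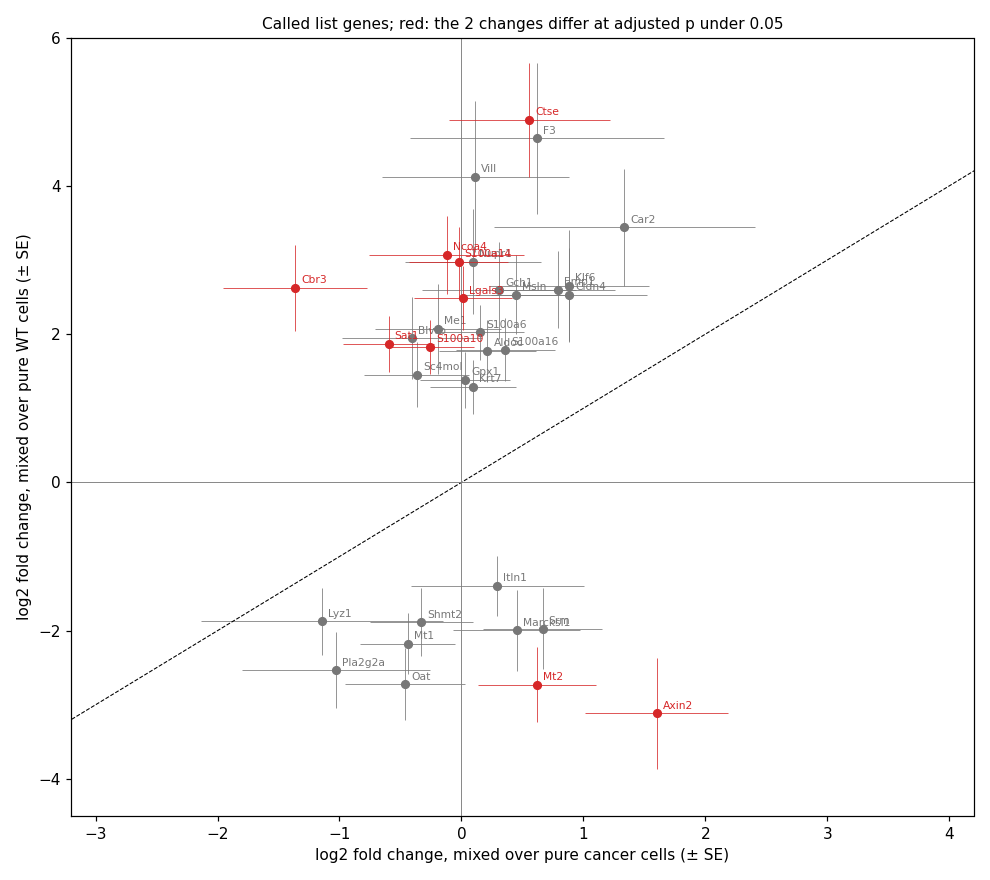
Log2 fold change of mixed over pure cultures in cancer cells (x axis) and WT cells (y axis), with SE bars, for 34 called list genes with more than 3 reads in each group (red, difference between the axes at an adjusted p under 0.05; dashed line, equal changes). The genes were chosen by their call in WT cells, so WT values far from 0 (at least 1.29 away, such as 4.90 ± 0.77 for Ctse) follow from that choice. Cancer values, which were not selected, lie between -1.36 for Cbr3 and 1.60 for Axin2. The red color alone marks a tested difference between the cell types.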

How the data were processed

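By the methods of the study, the authors aligned CEL-Seq reads to the mm10 RefSeq transcriptome with BWA, discarded reads that map to several places and counted the rest with featureCounts (versions not given in the sources used here). The read count table and the barcode count table (different molecule barcodes per gene, at most 256) were deposited as raw counts. The authors also deposited estimated counts of transcripts, which need not be whole and are made from the barcodes. Their DESeq2 1.22.2 table of fold changes and p-values was not used. A spike-in row and an eGFP row, with at most 5.25e-05% of the reads of a library, were left out, and columns were matched to samples by their labels. Read counts were fitted with edgeR 4.0.16 (R 4.3.3) over all 8 libraries, with filterByExpr at a minimum count of 10, TMM factors, and group and quartet as terms. SE values are the size of the log2 fold change over the root of F. A group with 0 reads was set at 3 pooled reads, which covers counting error only.

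Members and lists were chosen with earlier results of these data known. Named genes are those called from a list, the 5 per direction called outside lists that moved most (mean in WT libraries of 50 reads or more), the 2 most abundant of each list, and up to 2 per direction with the smallest unadjusted p. A few genes under this rule, and 1 allele of the cancer organoids, are not reported here. Alternatives were no block, RLE or upper-quartile factors, other filters (no filter, a minimum of 50), barcode or rounded transcript counts, DESeq2 1.42.0, WT libraries alone, and each library left out. The fit was tested on simulated data. Positions and windows come from GENCODE vM21 (GRCm38), promoters from RefSeq (GRCm38.p6).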

Additional observations from a re-analysis of the deposited data

Results flagged for a closer look

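For 12 named genes the change on mixing was not the same in WT as in cancer cells, by the interaction term of the blocked edgeR fit over 5264 genes. Values are the log2 change in WT cells minus that in cancer cells. They were 4.34 for Ctse, 3.99 for Cbr3, 3.80 for AA467197, 3.19 for Ncoa4, 3.00 for S100a14, 2.68 for Ero1l, 2.47 for Lgals3, 2.47 for Sat1 and 2.08 for S100a10. For these 9 genes both mixed WT libraries lay above both pure ones. The values were -4.72 for Axin2, -3.35 for Mt2 and -1.99 for Cfl1, and for these 3 both mixed WT libraries lay below both pure ones. Of all 119 genes called in WT cells, 110 had both mixed libraries on 1 side of both pure ones. Of all tested genes, 15.0% had both mixed libraries above and 28.8% had both below. Adjusted p-values with the block are given in the report for each. Over the 16 alternatives, the difference stayed past the threshold in 16 for AA467197, 14 for Axin2, 12 for Mt2, 11 for S100a14, 10 for Sat1 and Cbr3, 9 for Lgals3 and Ero1l, 8 for S100a10, 7 for Ctse and Ncoa4, and 5 for Cfl1. The highest adjusted p over these alternatives was 0.0273 for AA467197 and between 0.165 and 0.849 for the other 11. Without the block AA467197 alone of the 12 passed (adjusted p = 0.0253). In cancer cells 0 of these genes were called, and Cfl1 was not called in WT cells.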

How the results depend on the processing

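The 119 genes called between mixed and pure WT cells became 39 without the block, 73 with DESeq2 without the block, 68 with no filter on low counts and 196 with transcript counts. With 1 library left out the number ranged from 18 (without A05) to 123 (without A02), and without A06 24 rose and 60 fell. The count stayed within 1.5 times under the other alternatives, and 59 of its genes were among the 94 called with barcode counts. The 30 genes whose change differed between WT and cancer cells became 4 without the block, 48 with RLE factors, 48 with upper-quartile factors, 48 with DESeq2, 49 with transcript counts and 11 with no filter, and 5 (without A08) to 72 (without A06) with 1 library left out. Of the 52 called genes named in the report, 21 stayed called without the block, 8 without A05, 22 without A06, 29 with barcode counts and 52 with either other scaling. The sign turned for Gch1 without A06, whose values with 1 library left out ran from -1.54 to 3.62, for Itln1 (0.45) with barcode counts, and for the Cfl1 difference (0.73) with barcode counts. The cause was not tested. Whether the well order pairs the libraries was checked by the correlation of deviations from group means over 5264 genes, which are not independent. It was 0.052 between pure and mixed WT and 0.044 to 0.211 for the other pairs of groups, so the pairing stays an assumption. The fits also differed in how strongly the spread was shared over genes. The prior degrees of freedom, which measure this sharing, were 91.2 with the block and 19.3 without it. In the 4 WT libraries alone, 80 genes were called with the block and 108 without it. Why calls were lost without the block was not tested. The 73109 reads of A02 set the limit for low genes, since 3 reads there make 39.3 CPM.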

Other observations

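Among the called genes in no list, several are known to be induced when oxygen is low. They were chosen for mention after their values were seen, and no test was made of them as a group. Other genes known to be induced then, Ldha, Aldoa and Slc2a1, were not called. Of these, Ldha and Aldoa had negative log2 fold changes and Slc2a1 a positive one, as given above. Hilpda, a lipid droplet protein, lay at 24.7 and 20.8 CPM in the pure and 157 and 109 CPM in the mixed libraries and rose by 2.50 ± 0.53 (SE, adjusted p = 0.00127 with the block and 0.0294 without it), with the call lost without A05 (0.0609) or with barcode counts (0.058). Bhlhe40, a transcriptional repressor, lay at 89.7 and 57.3 CPM in the pure and 406 and 285 CPM in the mixed libraries. It rose by 2.22 ± 0.46 (SE, adjusted p = 0.000977 with the block and 0.0294 without it), with the call lost without A05 (0.135). Egln3, a prolyl hydroxylase of the oxygen-sensing pathway, lay at 223 and 70.8 CPM in the pure and 380.1 and 607 CPM in the mixed libraries and rose by 1.96 ± 0.43 (SE, adjusted p = 0.00197 with the block and 0.123 without it), with the call lost without A05 (0.494), A06 (0.334) or with barcode counts (0.101). Ankrd37 lay at 82.4 and 29.2 CPM in the pure and 144 and 177 CPM in the mixed libraries, a change of 1.86 ± 0.54 (SE, adjusted p = 0.0385 with the block and 0.37 without it), with the call lost without A01 (0.0788), A03 (0.165), A04 (0.0632), A05 (0.798), A06 (0.547), A07 (0.0821) or A08 (0.109). Adm, the peptide adrenomedullin, had 5 and 4 reads in the pure and 0 and 24 reads in the mixed libraries, so A06 alone carried its change of 3.55 ± 1.00 (SE, adjusted p = 0.0343 with the block and 0.123 without it), and the call was lost without A01 (0.116), A04 (0.282), A05 (0.795), A06 (0.738), A08 (0.182) or with barcode counts (0.071).

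Genes that interferon is known to induce also stood among the calls, again named after their values were seen. Oasl1 lay at 24.7 and 2.25 CPM in the pure and 170.4 and 134 CPM in the mixed libraries and rose by 3.92 ± 0.68 (SE, adjusted p = 6.80e-05 with the block and 0.0367 without it), with the call lost without A05 (0.108). Ifi27l1 lay at 7.32 and 6.18 CPM in the pure and 105 and 215 CPM in the mixed libraries. It rose by 4.64 ± 0.63 (SE, adjusted p = 7.15e-08 with the block and 0.000389 without it), and the call held without each library. B2m, the light chain of MHC class I, lay at 203 and 409 CPM in the pure and 589.9 and 1001 CPM in the mixed libraries and rose by 1.41 ± 0.41 (SE, adjusted p = 0.0408 with the block and 0.234 without it), with the call lost without A01 (0.494), A02 (0.0543), A03 (0.079), A04 (0.0563), A05 (0.107), A06 (0.3), A08 (0.126) or with barcode counts (0.23). Oasl2 had 0 reads in both pure libraries and 2 and 13 reads in the mixed ones, at least 27.7-fold higher over the pooled libraries (adjusted p = 0.00826 with the block and 0.0569 without it), lost without A08 (0.0506) and not tested without A01, A04, A05 or A06, where it did not pass the filter. The mitochondrial gene mtCo1 lay at 4798 and 7205 CPM in the pure and 14839 and 14089 CPM in the mixed libraries and rose by 1.29 ± 0.35 (SE, adjusted p = 0.0266 with the block and 0.129 without it), with the call lost without A01 (0.453), A02 (0.363), A06 (0.192) or with barcode counts (0.675).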
